A study of Mus musculus with 18 samples.

Results

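The TGFb response of the mouse pancreatic ductal adenocarcinoma line PD7591 was set against the same response in the lines PD454 and PD883. For each gene, the TGFb effect (TGFb against DMSO, as a log2 fold change) in PD7591 was taken, and the mean of the effects in PD454 and PD883 was subtracted. This quantity is called the difference below. PD7591 gave 4 of the 18 RNA sequencing libraries for this comparison, 2 with the vehicle DMSO and 2 with TGFb, and the other lines gave 4 each. Of 13827 genes tested, 275 had a difference with an adjusted p under 0.05, which is 1.99% of them. For 70 genes, or 0.506%, PD7591 also differed in the same direction from PD454 and from PD883 when each was taken alone.

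All cells were kept for 48 h with DMSO, 10 ng/ml TGFb or 2.5 µM ionomycin, a calcium ionophore, and the ionomycin libraries entered here only through the choice of tested genes, the library scaling and the estimate of spread. Each of the 9 combinations of line and treatment had 2 libraries. The lines are labelled as pancreatic ductal adenocarcinoma on a mixed strain background, and neither driver alleles nor clonal origin were given with them. Every group shared 1 culture medium, which held insulin, dexamethasone, cholera toxin, nicotinamide and bovine pituitary extract. Each line is a single culture model, so a difference between PD7591 and the others is a difference between 3 lines and not between classes of tumour. The labels do not say that the duplicates came from separate cultures, so the p-values measure the spread between these libraries, which may be technical.

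TGFb is a secreted cytokine that binds a pair of receptor kinases, which phosphorylate SMAD proteins that then enter the nucleus and switch genes on or off. In carcinoma cells of the pancreas it is known for driving epithelial-mesenchymal transition (EMT), in which cell junction genes fall and matrix and motility genes rise. SMAD proteins act together with other transcription factors present in the cell, such as AP-1, a dimer of FOS and JUN family proteins, and RUNX proteins.

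The 12 DMSO and TGFb libraries held between 17591005 and 37894692 counts, and the 4 of PD7591 between 18160869 and 22268519. The duplicates of PD7591 lay closest together: the chi-square per degree of freedom between them was 7.93 for DMSO and 4.83 for TGFb, against 53.7 to 89.7 for the DMSO and TGFb pairs of the other lines. Among those pairs, DMSO library 14 and TGFb library 18 of PD454 and DMSO library 8 and TGFb library 12 of PD883 are known from earlier work on these data to be rich in short transcripts, and none of the 4 belongs to PD7591. A fit without them had 1 library in each DMSO and TGFb group of PD454 and PD883. Its count of called genes is listed further below with the other settings, but cannot be compared with the 275. The ductal markers Krt7, Krt8 and Krt18 stood at or above 400.4 CPM (the usual depth-scaled count unit, here with library scaling factors applied) in all 12 libraries, while Epcam, a usual carcinoma marker, stayed at or below 3.45 CPM. Krt19 went down to 4.12 CPM, Muc1 to 0.790 CPM and Cldn4 to 0, and Cldn7 never passed 1.00 CPM. Of markers of other cells, Ptprc of immune cells reached 0.274 CPM, Cdh5 of endothelium 0.692 CPM and Dcn of fibroblasts 0.549 CPM, while Ins1, Ins2 and Cpa1 had no count. Other members of those lists were higher: Cd68 was at 2.54 to 5.59 CPM, and the highest values were 6.18 CPM for Cela1, 15 CPM for Pdgfrb and 84.3 CPM for Col1a1. The endothelial list summed to between 25.5 and 152 CPM, nearly all of it from Flt1. In bulk libraries such as these, fewer cells that express a gene and less RNA of it per cell cannot be told apart. With 2 libraries against 2, the DMSO and TGFb libraries of PD7591 did not overlap for 79.9% of tested genes, so a lack of overlap between groups says little by itself.

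TGFb changed 5230 genes in PD7591 (37.8%, with 17.7% higher and 20.1% lower), 4282 in PD454 (31.0%, with 14.8% and 16.1%) and 5312 in PD883 (38.4%, with 18.4% and 20.0%), and 2493 genes were called with the same sign in all 3. Across genes, which are not independent replicates, the effect in PD7591 had a Pearson correlation of 0.73 with that in PD454 and 0.78 with that in PD883, and that between PD454 and PD883 was 0.70. Each effect rested on its own libraries. The standard deviation of the effect over genes was 1.52 in PD7591, 1.48 in PD454 and 1.58 in PD883 (log2). By this measure the spread of the response in PD7591 lay between those of the other lines.

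Of the 275 genes, 118 had a higher effect in PD7591 (0.853% of tested genes) and 157 a lower one (1.14%). The difference from PD454 alone was called for 349 genes (2.52%, with 0.926% higher and 1.60% lower in PD7591) and that from PD883 alone for 247 (1.79%, with 1.11% higher and 0.673% lower). Of the 275, 112 also differed from PD454 but not from PD883 alone, 76 from PD883 but not from PD454 alone, and 17 from neither alone. The remaining 70 comprised 39 genes with a higher effect (0.282% of tested genes) and 31 with a lower effect (0.224%) in PD7591. The members nearest to no difference were Fam110c on the higher side and Epn2 on the lower side. Their differences ran from 0.93 to 6.04 (log2) for the higher genes, with a median of 1.88, and from -4.73 to -0.96 for the lower ones, with a median of -1.83. These counts rest on each PD7591 library: without DMSO library 1, DMSO library 2, TGFb library 5 or TGFb library 6, the 275 became 93, 85, 61 and 103, and the 70 became 26, 33, 23 and 36.

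**Figure D1:**
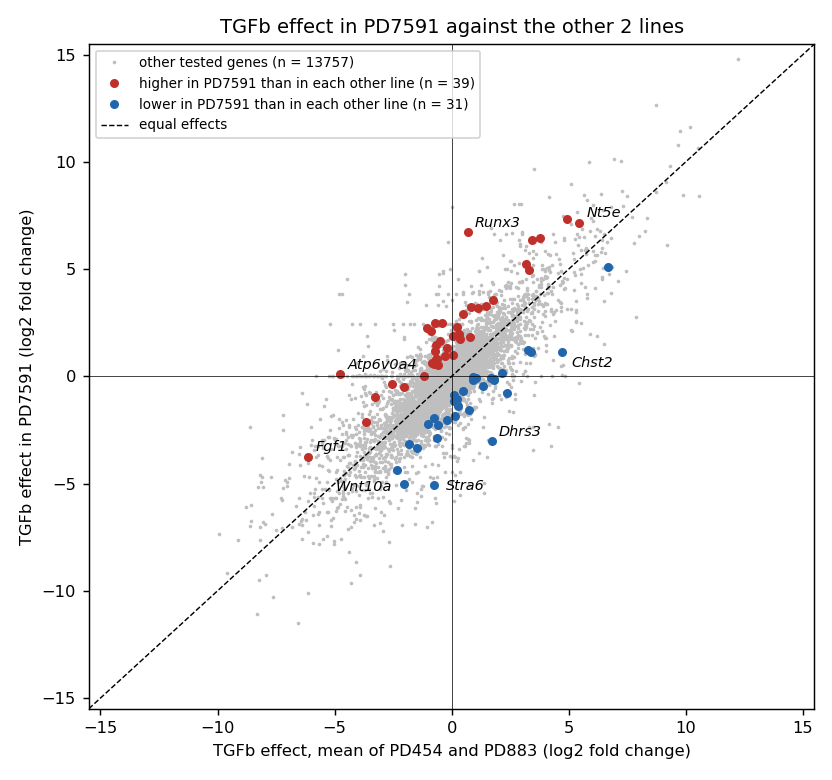
Each point is a tested gene, with the TGFb effect in PD7591 on the vertical axis and the mean effect in PD454 and PD883 on the horizontal axis (log2 fold change). The 39 red and 31 blue genes, which differed from each of the other lines, lie above and below the dashed line of equal effects by the rule that chose them, while most genes lie along that line.

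The 70 genes fell into several patterns. For 13 of the higher genes and 5 of the lower ones, TGFb moved the gene one way in PD7591 and the opposite way in at least 1 other line, with both effects called. Those of the 13 named here were Abcb1a, Akr1b8, Angptl4, Aplp2, Degs1, Glrx, Hspb1, Krt80, Rcan2, Sdcbp2, Trf and Zfp503, and the 5 were Col6a2, Dhrs3, Erap1, Foxq1 and Myrip. Not all of these calls held in other settings, as given further below for Sdcbp2, Angptl4 and Myrip. The effects of Abcb1a, Akr1b8, Aplp2, Degs1, Glrx, Hspb1, Krt80, Trf and Foxq1 were not followed through other settings. The Col6a2 effect in PD454 (0.96) was not called by limma-voom (adjusted p = 0.0845). The Erap1 effects in PD454 (0.47) and PD883 (0.48) were not called by edgeR without the low-count filter (adjusted p = 0.0770 and 0.0654). The Rcan2 effect in PD883 (-1.30) lost its call in some fits that left out libraries. In 15 higher and 9 lower genes the effect had the same sign as in another line and was larger in PD7591. In 3 higher and 4 lower genes it had the same sign and was smaller. The effect was called in PD7591 alone for 4 higher and 5 lower genes, and in the other lines but not in PD7591 for 4 higher and 8 lower genes. For comparison, over all tested genes 34 were called in opposite directions in PD7591 and PD454, and 33 in PD7591 and PD883. Genes named in this paragraph and not again were taken from the pattern and not from the rule for named genes.

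Among receptors and ligands, F2rl1, which encodes the protease-activated receptor PAR2, showed a rise in PD7591 that set it apart. Its level was 55.1 and 48.5 CPM in the DMSO libraries of PD7591 and 495 and 488 CPM with TGFb. PD454 went from 48.9 and 56.1 CPM to 61.8 and 75.8 CPM, and PD883 from 27.0 and 35.7 CPM to 67.2 and 86.9 CPM. The DMSO libraries of PD7591 and PD454 overlapped, whereas both TGFb libraries of PD7591 stood far above all others. The effect was 3.25 ± 0.21 (log2 ± SE, n = 2 against 2) in PD7591, 0.39 ± 0.19 in PD454 and 1.30 ± 0.20 in PD883, and the difference was 2.40 ± 0.24 (edgeR quasi-likelihood test, adjusted p = 0.000181).

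Areg encodes amphiregulin, a ligand of the EGF receptor. Its level rose in PD7591 from 3.73 and 2.97 CPM to 30.3 and 20.2 CPM. It was 13.8 and 20.2 CPM in DMSO and 16.6 and 26.4 CPM with TGFb in PD454, and 10.6 and 9.77 CPM against 16.1 and 16.4 CPM in PD883. PD7591 thus started below the other lines and ended among them, with a difference of 2.42 ± 0.31 (edgeR adjusted p = 0.00106). Of the 14 tested genes of the EGF family and ERBB receptor list, 2 were called higher, Areg and the ligand Btc, and none lower by edgeR, where 6 had an unadjusted p under 0.05 in the higher direction and 0 in the lower. DESeq2 called 4 higher and 0 lower. Of all 13827 genes, edgeR called 118 higher and 157 lower, 856 were higher and 1056 lower at an unadjusted p under 0.05, and DESeq2 called 234 and 319. These counts are the background of every list. The median effect of the list was 0.72 in PD7591, -0.13 in PD454 and 0.02 in PD883 (log2), and its median difference was 0.51, against -0.01 over all tested genes.

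The immediate early list holds transcription factors and feedback genes that respond within minutes to many stimuli, here read at 48 h. Of its 27 tested genes, 5 were called higher in PD7591, 0 lower, and 22 of 27 had a positive difference, against 6728 of 13827 genes overall. Over all tested genes the called shares were 0.853% higher and 1.14% lower. By unadjusted p under 0.05, 11 were higher and 0 lower, and DESeq2 called 6 higher and 0 lower. Its median effect was 0.64 in PD7591, 0.08 in PD454 and 0.05 in PD883. The members called were Egr1, Nr4a1, Fosb, Fos and Dusp1. The last 3 were named after their values were seen.

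Egr1, a zinc finger transcription factor, rose from 47.4 and 54.4 CPM to 214 and 190 CPM in PD7591. In PD454 it was 45.7 and 43.3 CPM in DMSO and 69.8 and 66.9 CPM with TGFb, and in PD883 47.4 and 35.8 CPM against 46.1 and 36.4 CPM. The DMSO libraries of the 3 lines lay close together and PD7591 separated with TGFb (difference 1.69 ± 0.20, edgeR adjusted p = 0.000802). Nr4a1, an orphan nuclear receptor, rose in PD7591 from 4.58 and 5.15 CPM to 20.1 and 15.5 CPM, with an effect of 1.87 ± 0.24, while the effects in PD454 and PD883 were 0.08 ± 0.24 and 0.02 ± 0.24. Its TGFb libraries in PD7591 lay above all 8 libraries of the other lines, which held between 5.91 and 11.1 CPM (difference 1.82, edgeR adjusted p = 0.00564). 

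Fosb, a partner in AP-1, rose in every line but most in PD7591, from 1.23 and 1.74 CPM to 60.3 and 54.7 CPM. The TGFb libraries of PD454 held 21.6 and 24.0 CPM and those of PD883 12.1 and 14 CPM (difference 2.08 ± 0.34, edgeR adjusted p = 0.00564, and 0.0531 without DMSO library 1 of PD7591). Fos itself did not pass the test in PD7591, with 5.01 and 4.23 CPM in DMSO and 3.65 and 3.68 CPM with TGFb. Its positive difference of 1.43 came from lower values with TGFb in the other lines, from 8.89 and 7.27 CPM to 2.59 and 2.68 CPM in PD454 and from 3.93 and 2.14 CPM to 0.697 and 0.858 CPM in PD883. The Fos call (adjusted p = 0.0278) was lost without any 1 of the 4 PD7591 libraries, TGFb library 11 of PD883 or TGFb library 17 of PD454 (adjusted p from 0.0532 to 0.167). It was not called against PD454 alone (0.0687) or PD883 alone (0.0515), nor by limma-voom (0.0752). Dusp1, a phosphatase that turns off MAP kinases, was likewise not called in PD7591 (0.26 ± 0.24) and was -0.94 ± 0.25 in PD454 and -1.76 ± 0.25 in PD883, and its difference of 1.61 lost its call without DMSO library 1 (adjusted p = 0.0799) or TGFb library 5 (0.0727) of PD7591, and was not called against PD454 alone (adjusted p = 0.0853).

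**Figure D2:**
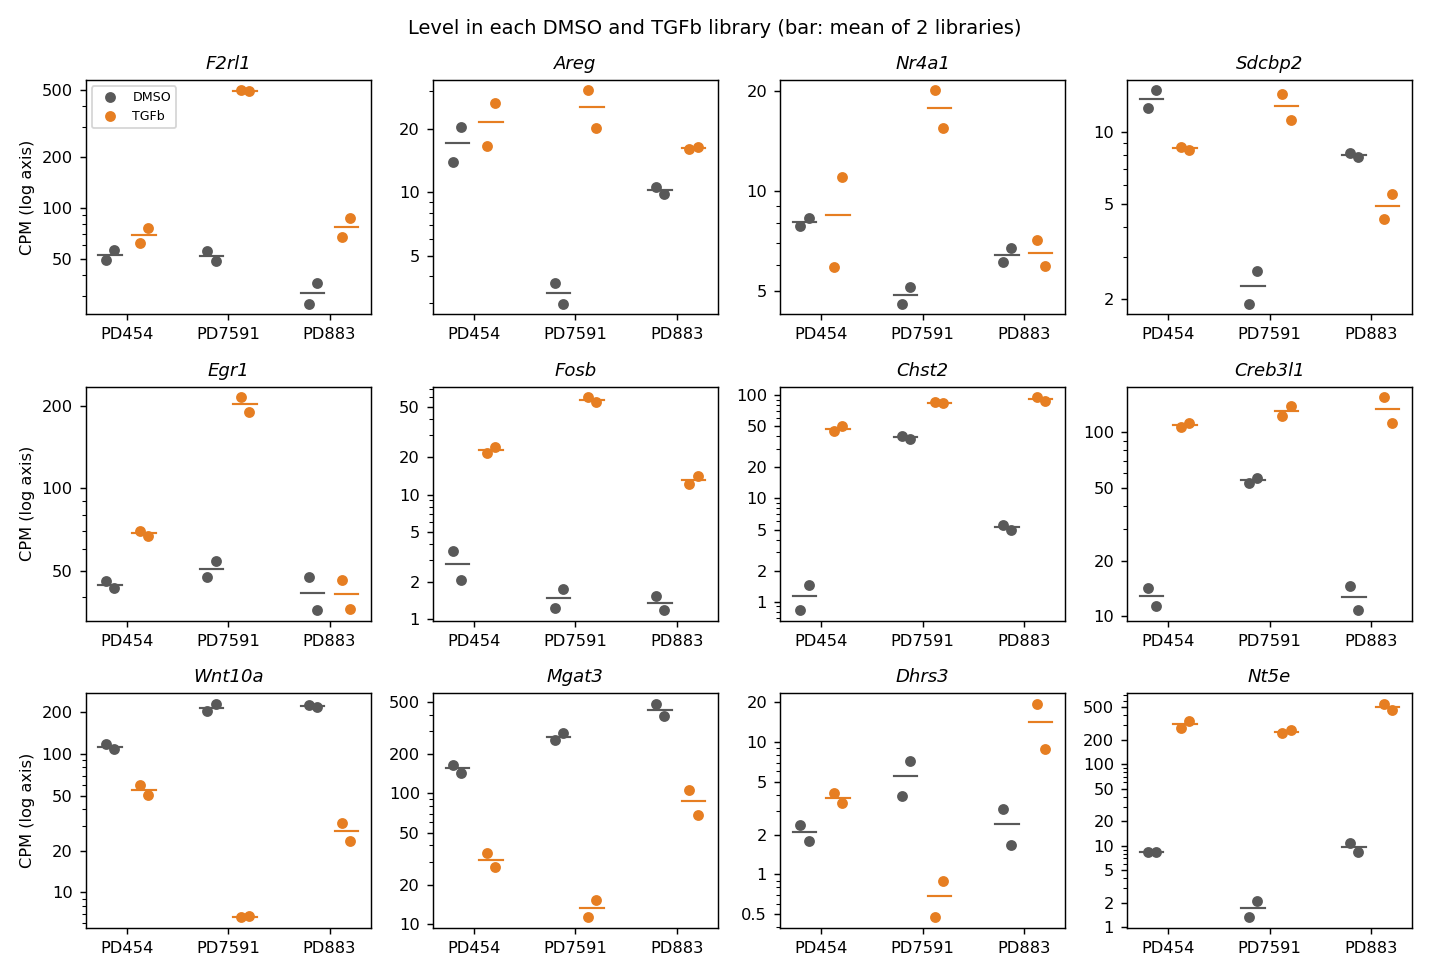
Each panel gives 1 gene in the 12 DMSO (grey) and TGFb (orange) libraries, as CPM on a log axis that differs between panels, with a bar at the mean of the 2 libraries. F2rl1, Egr1 and Fosb separate with TGFb in PD7591, and Chst2 and Creb3l1 separate in DMSO.

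The promoters of 3 genes are shown because these genes rose more in PD7591 and because the windows hold short motifs of AP-1 or of CREB-type factors. The windows run from 250 bases before to 50 bases after the start of the gene and come from RefSeq on build GRCm38.p6. Capitals mark each TGANTCA (AP-1 site) and each TGACG on either strand (a partial cAMP response element, CGTCA when read on the other strand), and a pair of overlapping TGACG on both strands forms the full element TGACGTCA in Areg.
Sdcbp2, chr2:151572373-151572672, plus strand: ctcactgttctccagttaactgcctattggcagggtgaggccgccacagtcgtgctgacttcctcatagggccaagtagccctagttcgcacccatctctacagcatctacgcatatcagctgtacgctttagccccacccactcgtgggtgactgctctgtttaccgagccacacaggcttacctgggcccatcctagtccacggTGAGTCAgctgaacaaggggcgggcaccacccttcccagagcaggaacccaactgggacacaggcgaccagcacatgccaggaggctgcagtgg
Areg, chr5:91139349-91139648, plus strand: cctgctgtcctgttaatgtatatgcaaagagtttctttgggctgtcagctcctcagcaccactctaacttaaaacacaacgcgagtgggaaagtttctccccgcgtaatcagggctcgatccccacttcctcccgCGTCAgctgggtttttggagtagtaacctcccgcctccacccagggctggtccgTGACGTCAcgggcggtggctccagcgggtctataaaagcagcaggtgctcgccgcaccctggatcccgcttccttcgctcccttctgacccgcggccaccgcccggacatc
Nr4a1, chr15:101266596-101266895, plus strand: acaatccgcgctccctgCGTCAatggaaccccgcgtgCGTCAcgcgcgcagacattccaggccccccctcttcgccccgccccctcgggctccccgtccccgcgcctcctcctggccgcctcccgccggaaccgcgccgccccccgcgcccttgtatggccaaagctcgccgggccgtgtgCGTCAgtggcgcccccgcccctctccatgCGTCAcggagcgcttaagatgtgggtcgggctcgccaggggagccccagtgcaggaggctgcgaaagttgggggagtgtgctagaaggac

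In Sdcbp2 the AP-1 letters begin 44 bases before the start, in Areg the full element begins 61 bases before it, and Nr4a1 holds 4 copies of CGTCA. A promoter window was found for 10542 of the 13827 tested genes, among them 26 of the 39 higher and 22 of the 31 lower genes. TGANTCA lay in a window of 7 of the 26 higher genes (Adgrg1, Fam110c, Glrx, Havcr2, Lpin3, Rcan2 and Sdcbp2), 1 of the 22 lower genes (Epb41l1) and 721 of all 10542 genes, or 6.84%. TGACG was found for 8 of 26, 2 of 22 and 34.5% of all, and the SMAD box CAGAC for 15 of 26, 16 of 22 and 52.6%. Over windows in place of genes, TGANTCA lay in 5.74%, TGACG in 29.9%, CAGAC in 47.6% and TGACGTCA in 2.98% of 13372. These matches describe letters and were not tested.

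Several genes of other functions rose far more in PD7591. Runx3, a RUNX family transcription factor that partners SMAD proteins, was almost silent in the DMSO libraries of PD7591, at 0 and 0.0436 CPM, and reached 2.17 and 4.08 CPM with TGFb. That is 1 count against 123 over the group, a ratio of 131 with a 95% counting interval of 23.2 to 5233. It stayed far below PD454, which held 49.2 and 37.9 CPM in DMSO and 55.4 and 47.5 CPM with TGFb, and PD883, which held 21.3 and 14.9 CPM and then 45.6 and 33.8 CPM. The fitted difference was 6.04 ± 0.77 (edgeR adjusted p = 0.00136), a value that depends on the single DMSO count.

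Sdcbp2, which encodes the scaffold protein syntenin-2, rose in PD7591 from 1.92 and 2.62 CPM to 14.5 and 11.2 CPM. The other lines had higher DMSO levels and lower TGFb levels, from 12.7 and 15 to 8.71 and 8.40 CPM in PD454 and from 8.15 and 7.86 to 4.32 and 5.50 CPM in PD883 (difference 3.18 ± 0.28, edgeR adjusted p = 4.49e-05). The small Sdcbp2 effect in PD454 (-0.70) lost its call without DMSO library 14, TGFb library 17 or TGFb library 18 of that line, and the effect of -0.69 in PD883 did so without DMSO library 7 or TGFb library 11.

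Angptl4, a secreted inhibitor of lipoprotein lipase, went from 12.4 and 11.1 CPM to 71.7 and 59.3 CPM in PD7591. It went from 52.7 and 64.2 CPM to 18.3 and 30.5 CPM in PD454, and was 19.2 and 24.5 CPM against 20.1 and 39.5 CPM in PD883. PD7591 was thus the lowest line in DMSO and the highest with TGFb, where the libraries of PD454 and PD883 overlapped (difference 2.89 ± 0.42, edgeR adjusted p = 0.00281). The PD454 effect of -1.26 lost its call without DMSO library 14 (adjusted p = 0.0597) or TGFb library 17 (0.119).

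Nt5e, which encodes the ecto-5'-nucleotidase CD73, rose steeply in all 3 lines. PD7591 went from 1.33 and 2.14 CPM to 241 and 262 CPM, PD454 from 8.50 and 8.29 to 275 and 340 CPM, and PD883 from 10.9 and 8.45 to 548 and 467 CPM. The larger effect in PD7591 (7.16 ± 0.24, against 5.20 ± 0.21 and 5.72 ± 0.21) went with its lower DMSO level, and with TGFb it was the lowest of the lines. Klhl1, a kelch protein, reached 31.9 and 27.3 CPM in PD7591 with TGFb, from 0.266 and 0.436 CPM. It reached 3.22 and 2.44 CPM in PD454 and 16.8 and 16.3 CPM in PD883 (difference 2.92, adjusted p = 0.00724, and 0.0516 without DMSO library 1 of PD7591). Rcan2, an inhibitor of calcineurin, went from 0.160 and 0.262 CPM to 1.16 and 0.946 CPM in PD7591. It went from 0.823 and 0.390 to 0.369 and 0.277 CPM in PD454, and fell from 2.62 and 2.50 to 1.07 and 1.01 CPM in PD883. The Rcan2 difference of 3.33 (adjusted p = 0.00821) lost its call without DMSO library 1 (3.09) or TGFb library 5 (3.21) of PD7591. Zfp503, a zinc finger repressor, went from 0.266 and 0.305 CPM to 1.64 and 0.946 CPM in PD7591. It went from 10.5 and 9.52 to 7.39 and 8.40 CPM in PD454, and fell from 36.1 and 25.6 to 13.9 and 9.34 CPM in PD883. PD7591 thus stayed below both lines with TGFb. The Zfp503 difference of 3.02 (adjusted p = 0.00564) lost its call without TGFb library 5 of PD7591 (2.61).

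Some genes have a positive difference because they fell less in PD7591. Fgf1, a fibroblast growth factor, fell from 23 and 24.4 CPM to 2.01 and 1.54 CPM in PD7591. It fell from 88.0 and 88.7 CPM to 1.16 and 1.52 CPM in PD454 and from 173 and 156 CPM to 2.88 and 1.67 CPM in PD883. With TGFb the libraries of PD7591 and PD883 overlapped and those of PD454 lay just below both, whereas the DMSO libraries of the 3 lines were far apart (difference 2.39 ± 0.28, edgeR adjusted p = 0.000802). Atp6v0a4, a subunit of the vacuolar proton pump, was near 0 in PD7591 throughout, at 0.107 and 0.174 CPM in DMSO and 0.264 and 0.0498 CPM with TGFb. In PD454 it fell from 46.0 and 44.5 CPM to 1.11 and 1.66 CPM, and in PD883 from 24.0 and 25.9 CPM to 0.976 and 1.21 CPM. The difference of 4.84 ± 0.86 (adjusted p = 0.00981) lost its call without TGFb library 5 of PD7591 (adjusted p = 0.684).

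The lower effects of the named genes were largest for Dhrs3 and Stra6. Dhrs3 encodes a reductase that turns retinal back into retinol, and Stra6 a membrane receptor that takes up retinol, and both are known retinoic acid targets. Dhrs3 fell in PD7591 from 3.89 and 7.24 CPM to 0.475 and 0.896 CPM, was 2.36 and 1.80 against 4.12 and 3.46 CPM in PD454, and rose in PD883 from 3.14 and 1.68 to 19.4 and 8.91 CPM. Its TGFb libraries in PD7591 lay below all 8 libraries of the other lines (difference -4.73 ± 0.57, edgeR adjusted p = 0.000802). Stra6 fell from 5.65 and 9.86 CPM to 0.158 and 0.299 CPM in PD7591, and was 3.18 and 2.76 against 1.27 and 0.738 CPM in PD454 and 2.11 and 0.863 against 2.00 and 1.09 CPM in PD883. Its difference of -4.28 ± 0.74 (adjusted p = 0.00821) lost its call without DMSO library 2 (0.0516) or TGFb library 5 (0.0912) of PD7591.

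Aldh1a3, a dehydrogenase that makes retinoic acid from retinal, had the reverse difference. It rose from 0.639 and 0.218 CPM to 36.5 and 36.3 CPM in PD7591, from 2.52 and 1.89 to 31.9 and 34.2 CPM in PD454 and from 2.85 and 2.41 to 34.6 and 28.9 CPM in PD883. The 3 lines ended at like levels from different DMSO levels. The difference was 2.68 ± 0.49 (adjusted p = 0.0112), and without DMSO library 2 or TGFb library 5 of PD7591 it was 2.08 (0.121) or 2.71 (0.0534).

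Wnt10a, a ligand of the Wnt pathway, fell in PD7591 from 204 and 230 CPM to 6.60 and 6.72 CPM. It fell from 117 and 108 CPM to 59.5 and 50.5 CPM in PD454 and from 226 and 219 CPM to 31.8 and 23.4 CPM in PD883. With TGFb the 3 lines were cleanly separated, with PD7591 lowest (difference -3.0 ± 0.26, edgeR adjusted p = 4.49e-05). A second ligand, Wnt6, fell from 8.63 and 11.9 CPM to 0.158 and 0.249 CPM in PD7591, from 1.97 and 1.95 to 0.633 and 0.923 CPM in PD454 and from 12.7 and 9.63 to 0.465 and 0.454 CPM in PD883. Its difference of -2.66 (adjusted p = 0.0102) came from PD454: it was -4.29 against PD454 alone and -1.02 against PD883 alone (adjusted p = 0.000734 and 0.439). It was also lost without TGFb library 5 (0.115) or 6 (0.0534) of PD7591, without the 4 libraries rich in short transcripts (0.0565) and by limma-voom (0.0604). Of the 27 tested Wnt ligands, receptors and feedback genes, these 2 were called lower and 0 higher. By unadjusted p under 0.05, 8 were lower and 3 higher, DESeq2 called 3 and 1, limma-voom called 1 and 0, and the median difference was -0.41. The median effect of the list was nevertheless alike in the lines, at 0.19 in PD7591, 0.20 in PD454 and 0.06 in PD883.

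Mgat3, the enzyme that adds bisecting N-acetylglucosamine to N-glycans, had a DMSO level in PD7591 between those of the other lines and fell further there. It went from 254 and 289 CPM to 11.3 and 15.2 CPM there, from 166 and 144 to 34.7 and 27.5 CPM in PD454 and from 482 and 392 to 106 and 68.9 CPM in PD883 (difference -2.03 ± 0.26, edgeR adjusted p = 0.00103). Ppp1r12b, a subunit of myosin phosphatase, was highest in DMSO in PD7591 and fell to the level of the others. It went from 55.8 and 64.0 CPM to 8.40 and 7.72 CPM, against 8.67 and 6.19 then 8.13 and 4.57 CPM in PD454 and 13.5 and 12.3 then 6.23 and 6.61 CPM in PD883 (difference -2.28 ± 0.33, edgeR adjusted p = 0.00263).

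Several genes rose in the other lines and less or not at all in PD7591, where their DMSO level was already high. Chst2, a sulfotransferase that acts on glycans, was 40.0 and 37.9 CPM in the DMSO libraries of PD7591, against 0.823 and 1.44 CPM in PD454 and 5.59 and 5.00 CPM in PD883. With TGFb it reached 85.1 and 84.6 CPM in PD7591, 44.7 and 50.2 CPM in PD454 and 95.6 and 87.4 CPM in PD883. The effects were 1.12 ± 0.16, 5.31 ± 0.21 and 4.11 ± 0.19, and the difference of -3.59 ± 0.21 had the smallest adjusted p of the 70 genes (edgeR, 1.10e-06). Creb3l1, a membrane-bound transcription factor that acts on collagen genes, went from 53.1 and 56.8 CPM to 122 and 139 CPM in PD7591. It went from 14.3 and 11.4 to 106 and 113 CPM in PD454 and from 14.7 and 10.8 to 155 and 112 CPM in PD883, so the lines converged (difference -2.0 ± 0.25, edgeR adjusted p = 0.000927).

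Hs6st2, which sulfates heparan sulfate, stayed at 20.4 to 24.0 CPM in the 4 libraries of PD7591. It rose from 0.933 and 0.961 to 3.91 and 3.09 CPM in PD454 and from 1.54 and 1.55 to 8.46 and 8.18 CPM in PD883, still below every PD7591 library (difference -2.01 ± 0.25, edgeR adjusted p = 0.00086). Myrip, a linker of organelles to myosin, was 28.9 and 35.8 CPM in DMSO and 17.9 and 20.0 CPM with TGFb in PD7591. Its level rose from 0.165 and 0.270 to 1.00 and 1.29 CPM in PD454 and from 2.05 and 1.41 to 12.3 and 6.18 CPM in PD883 (difference -3.12 ± 0.41, edgeR adjusted p = 0.00123). The small fall of Myrip in PD7591 (-0.77, adjusted p = 0.0366) was lost without any 1 of its 4 libraries (adjusted p from 0.0645 to 0.239). Mycl, a MYC family factor, was 4.16 and 3.45 CPM against 2.80 and 3.88 CPM in PD7591 and rose by 1.82 in PD454 and 1.79 in PD883. Its difference of -1.99 (adjusted p = 0.0143) lost its call without DMSO library 1 (0.0971), DMSO library 2 (0.0556) or TGFb library 5 (0.138) of PD7591.

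**Figure D3:**
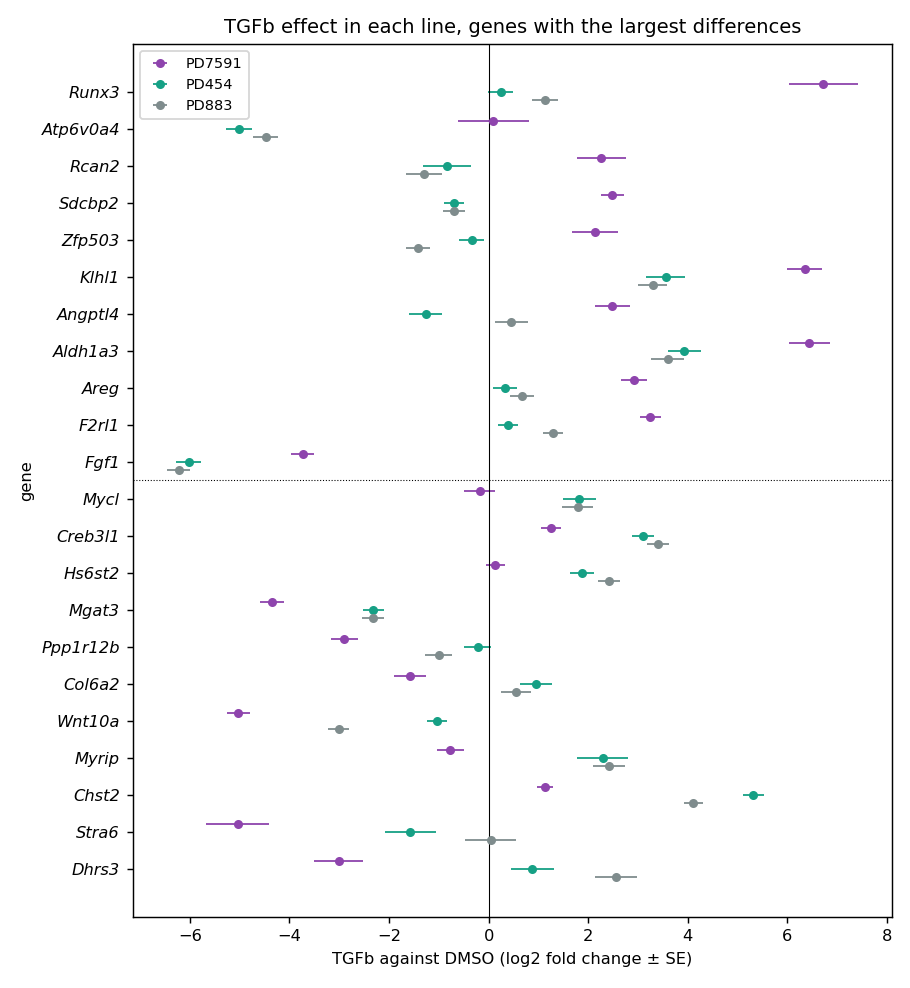
For each gene with one of the largest differences, the TGFb effect is given in PD7591 (purple), PD454 (green) and PD883 (grey) as a log2 fold change with its SE, ordered by the difference. By the rule that chose these genes, the purple point lies to the right of the other 2 above the dotted line and to their left below it. It is at 6.73 for Runx3 against 0.24 and 1.13, and at -3.01 for Dhrs3 against 0.88 and 2.56.

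The lines also differed without TGFb, and the difference in effect is by construction the level difference with TGFb minus that in DMSO, so these values share libraries. Over all tested genes, the DMSO level of PD7591 was called different from the mean of the others for 25.6% (12.3% higher and 13.4% lower) and the TGFb level for 14.2% (5.91% higher and 8.33% lower). Of the 39 genes with a higher effect, 32 had a lower DMSO level in PD7591, 1 a higher one, and 6 were not called, while with TGFb 13 were higher, 9 lower and 17 not called. Of the 31 with a lower effect, 20 had a higher DMSO level, 3 a lower one and 8 were not called, while with TGFb 15 were lower, 4 higher and 12 not called. Genes whose DMSO level was not called include F2rl1, Egr1, Nr4a1, Fosb, Klhl1, Wnt10a and Mgat3.

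**Figure D4:**
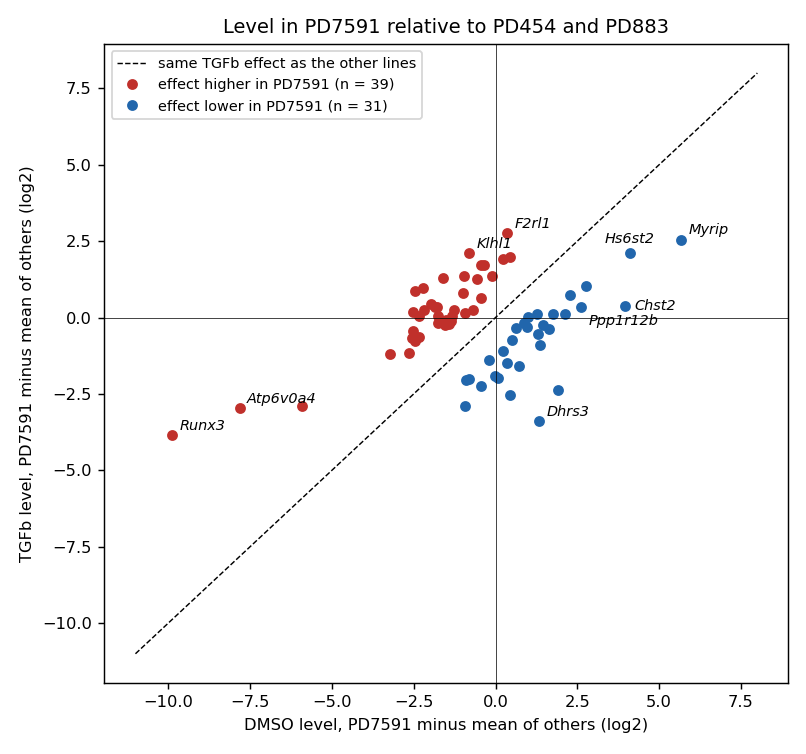
For the 70 genes, the level in PD7591 minus the mean of PD454 and PD883 is plotted with TGFb (vertical axis) against DMSO (horizontal axis), in log2. Red genes lie above and blue genes below the dashed line because they were chosen by that distance, and 32 of the 39 red genes had a lower DMSO level in PD7591.

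Of 26 SMAD-responsive genes, 3 were called higher, among them Cyr61 and Cdkn1a, and 0 lower, against 0.853% and 1.14% of all tested genes, with 5 and 3 at an unadjusted p under 0.05 and 3 and 2 by DESeq2. Cdkn1a did not rise with TGFb in PD7591 (effect -0.57, not called), and its difference of 1.29 was 0.51 against PD454 alone. The median effect of the list was 1.74 in PD7591, 1.45 in PD454 and 1.26 in PD883. Smad7, the inhibitor that SMAD proteins induce, went from 75.6 and 85.1 CPM to 351 and 359 CPM in PD7591, with a difference of 0.61 ± 0.36 (edgeR adjusted p = 0.495). Pmepa1, another feedback inhibitor, went from 102 and 107 CPM to 681 and 746 CPM (difference 0.46 ± 0.19, adjusted p = 0.309). Of the 15 EMT transcription factors tested, 0 were called by edgeR, by DESeq2 or by limma-voom, with 0 higher and 3 lower at an unadjusted p under 0.05. Snai1 rose by 4.14 ± 0.41 in PD7591, 3.80 ± 0.36 in PD454 and 2.65 ± 0.32 in PD883.

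Cyr61, a matricellular protein and target of YAP, rose from 74.1 and 95.8 CPM to 1018 and 841 CPM in PD7591, to 342 and 517 CPM in PD454 and to 388 and 443 CPM in PD883. Its difference of 1.53 (adjusted p = 0.012) was lost without DMSO library 1 (0.0903) or TGFb library 5 (0.0844) of PD7591, and against PD883 alone (1.10, adjusted p = 0.12).

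Of the TGFb pathway components, 1 of 26 was called lower, the type I receptor Tgfbr1, and 0 higher, with 3 in each direction at an unadjusted p under 0.05 and 1 and 0 by DESeq2. Tgfbr1 was 109 and 116 CPM in DMSO and 75.1 and 85.5 CPM with TGFb in PD7591, and rose from 160 and 124 to 291 and 250 CPM in PD454. It was 84.0 and 80.5 CPM against 141 and 94.7 CPM in PD883. The difference of -1.21 (adjusted p = 0.0217) was lost without any 1 of the 4 PD7591 libraries or TGFb library 17 of PD454, with adjusted p from 0.0514 to 0.19. It was not called against PD883 alone (-1.0, adjusted p = 0.104) or with the 12 DMSO and TGFb libraries alone (0.0553). Among 11 ID and BMP genes, Id3, an inhibitor of helix-loop-helix factors, was called higher (1.2, adjusted p = 0.0218) and 0 were lower, with 1 in each direction at an unadjusted p under 0.05 and 1 and 0 by DESeq2. It was 13.5 and 13.5 CPM against 16.2 and 21.4 CPM in PD7591 and went from 42.6 and 57.6 to 21.4 and 29.6 CPM in PD454 and from 65.6 and 63.3 to 48.7 and 43.6 CPM in PD883. The call was lost without DMSO library 1 (0.095), DMSO library 2 (0.106) or TGFb library 6 (0.129) of PD7591. It was also lost against PD883 alone (0.96, adjusted p = 0.119) and with the 12 DMSO and TGFb libraries alone (0.0526).

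Of the 38 tested epithelial junction and identity genes, TGFb lowered 22 in PD7591, 24 in PD454 and 27 in PD883. Cdh1, which encodes E-cadherin, fell from 543 and 628 CPM to 40.5 and 50.9 CPM in PD7591, by 3.68 on the log2 scale, by 2.28 in PD454 and by 4.21 in PD883, and the difference of -0.43 was not called (adjusted p = 0.672). For the difference, 1 of the 38 was called lower and 0 higher by edgeR, with 3 and 1 at an unadjusted p under 0.05 and 3 and 0 by DESeq2. The median effects were -1.38, -1.40 and -1.87 in PD7591, PD454 and PD883. Elf3, an epithelial ETS factor, was that gene (difference -1.29, adjusted p = 0.0369), with -2.18 against PD454 alone and -0.40 against PD883 alone (adjusted p = 0.653). Its call was lost in 10 of the 12 fits that each left out 1 library, with adjusted p up to 0.242. The 10 desmosome genes had 0 calls by edgeR, 3 lower and 0 higher at an unadjusted p under 0.05, 1 lower by DESeq2, and a median difference of -0.68.

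Of 27 pancreatic and gastric lineage genes, 2 were called lower, among them Vsig1, and 0 higher, with 5 and 0 at an unadjusted p under 0.05 and 2 and 0 by DESeq2.

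Of 39 matrix genes, 3 were called lower (Col1a1, Col6a2 and P4ha3) and 1 higher, against 1.14% and 0.853% of all tested genes. At an unadjusted p under 0.05, 12 were lower and 3 higher, against 1056 and 856 of 13827 genes, and DESeq2 called 6 and 2, against 319 and 234. The median effect was 0.84 in PD7591, 1.11 in PD454 and 1.26 in PD883, and the median difference was -0.37. Col1a1, the main chain of type I collagen, rose from 1.28 and 2.31 CPM to 4.97 and 7.57 CPM in PD7591, from 1.43 and 1.53 to 15.8 and 16.8 CPM in PD454 and from 3.99 and 2.14 to 84.3 and 60.7 CPM in PD883. Its difference of -2.23 (adjusted p = 0.012) was lost without DMSO library 2 (0.2) or TGFb library 5 (0.0916) of PD7591 and against PD454 alone (-1.67, adjusted p = 0.0824). Col6a2, a chain of type VI collagen, fell from 18.9 and 22 CPM to 5.60 and 8.07 CPM in PD7591, while PD454 went from 5.54 and 5.98 to 11.9 and 10.5 CPM and PD883 from 33.3 and 19.2 to 49.0 and 27.9 CPM (difference -2.33, adjusted p = 0.00722, and 0.0784 without TGFb library 5). Fn1, fibronectin, rose by 5.09 ± 0.43 in PD7591, 4.42 ± 0.42 in PD454 and 3.89 ± 0.41 in PD883. Its difference of 0.94 was not called (adjusted p = 0.375). It was 1.09, and called, only without the 4 libraries rich in short transcripts, where each DMSO and TGFb group of PD454 and PD883 held 1 library.

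The summed level of the fibroblast markers was higher with TGFb in each line, and 2 of the 6 tested members passed the test in each. It covers 11 genes and was 2.82 and 4.36 CPM in the DMSO libraries of PD7591 and 7.77 and 9.91 CPM with TGFb, against 21.0 to 22 CPM with TGFb in PD454 and 70.1 to 102 CPM in PD883. Col1a1 is itself a member and reached 7.57, 16.8 and 84.3 CPM with TGFb in PD7591, PD454 and PD883. Of the defining fibroblast markers, Thy1 and Lum stayed at or below 0.211 CPM and Dcn and Fap below 0.549 CPM in all 12 libraries, while Pdgfrb reached 15 CPM. Their part in the matrix result was not tested.

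Of 24 proteases and inhibitors, 2 were called higher (Adamts4 and Plau) and 3 lower (Timp3, Adam8 and Serpine2), against 0.853% and 1.14% of all tested genes. At an unadjusted p under 0.05, 7 were higher and 4 lower, and DESeq2 called 4 and 3. Adam8, a membrane metalloprotease, was flat in PD7591, with 32.7 and 32.3 CPM in DMSO and 30.6 and 30.2 CPM with TGFb. It rose from 61.3 and 62.0 to 114 and 109 CPM in PD454 and from 60.3 and 59.8 to 149 and 131 CPM in PD883 (difference -1.14, adjusted p = 0.00729). Serpine2, an inhibitor of thrombin and plasminogen activators, fell in PD7591 from 64.7 and 71.2 CPM to 26.5 and 26.3 CPM. It was between 17.2 and 37.2 CPM in the 8 libraries of the other lines (difference -1.63, adjusted p = 0.00763). The Adam8 call was lost without any 1 of the 4 PD7591 libraries (adjusted p from 0.0505 to 0.0742), and the Serpine2 call without DMSO library 2 (0.0524), TGFb library 5 (0.0735) or TGFb library 6 (0.0547).

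Of 15 MHC class I genes, 2 were called lower, H2-T23 and Erap1, and 0 higher, against 1.14% and 0.853% of all tested genes. At an unadjusted p under 0.05, 6 were lower and 1 higher, DESeq2 called 3 and 0, and the median difference was -0.61. The median effect was -1.20 in PD7591, -0.37 in PD454 and -1.20 in PD883, and TGFb lowered 8, 2 and 7 of the 15. As a list these genes thus fell in PD883 as in PD7591. H2-T23, a nonclassical class I molecule, fell in PD7591 from 16.4 and 22.9 CPM to 5.86 and 5.87 CPM, and was 16.2 and 17.7 against 20.2 and 21.6 CPM in PD454 and 56.0 and 39.2 against 43.2 and 26.3 CPM in PD883 (difference -1.66, adjusted p = 0.00821, and 0.0646 against PD883 alone). Erap1, which trims peptides for class I molecules, went from 58.0 and 66.2 CPM to 39.8 and 38.3 CPM in PD7591, from 24.1 and 23.1 to 35.6 and 29.9 CPM in PD454 and from 27.3 and 28.4 to 35.8 and 41.8 CPM in PD883 (difference -1.14, adjusted p = 0.00767). Both calls were lost without DMSO library 2, TGFb library 5 or TGFb library 6 of PD7591, with adjusted p from 0.0548 to 0.0735 for H2-T23 and from 0.07 to 0.0773 for Erap1.

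Of 21 interferon-stimulated genes, 1 was called lower and 0 higher by edgeR, with 5 and 0 at an unadjusted p under 0.05 and 3 and 0 by DESeq2. Their median difference of -0.86 was -0.37 without the 4 libraries rich in short transcripts. Gbp2, an interferon-induced GTPase, fell in PD7591 from 6.87 and 8.90 CPM to 2.06 and 1.69 CPM, while the other 8 libraries held between 1.05 and 3.93 CPM (difference -1.95, adjusted p = 0.0101). Its call was lost without DMSO library 2 (0.0892), TGFb library 5 (0.0685) or TGFb library 6 (0.0908) of PD7591, and against PD883 alone (0.0722).

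Of 24 p53 targets, 3 were called higher (Cdkn1a, Btg2 and Pmaip1) and 0 lower, and of 21 YAP and TAZ targets, 3 were higher (Ankrd1, Cyr61 and Nt5e) and 0 lower, against 0.853% and 1.14% of all tested genes. The median difference was only 0.07 for the p53 targets and 0.03 for the YAP and TAZ targets. At an unadjusted p under 0.05, 5 p53 targets were higher and 1 lower, and 4 YAP and TAZ targets were higher and 2 lower. The median effect of the p53 targets was -0.14 in PD7591, -0.21 in PD454 and -0.40 in PD883. Of 28 integrated stress response genes, Atf5 was called higher and 0 lower by edgeR, with 8 and 0 at an unadjusted p under 0.05 and 4 and 0 by DESeq2. Their median effect was -0.24, -0.84 and -0.95 in the same order of lines, and in PD7591 TGFb raised 0 of the 28 and lowered 11. In the p53 and integrated stress response lists a higher difference does not by itself mean a rise in PD7591. Of 19 interleukin and cytokine receptors, edgeR called Il6ra and Il22ra1 lower and 0 higher, against 1.14% and 0.853% of all tested genes. At an unadjusted p under 0.05, 3 were lower and 1 higher, DESeq2 called 2 and 0, and limma-voom called 0. Of 13 squamous and basal genes, 5 were tested, and edgeR called Sprr1a and Ivl lower and 0 higher. Here 3 were lower and 1 higher at an unadjusted p under 0.05, with 2 and 0 by DESeq2 and 1 and 0 by limma-voom. Of the called genes of these lists, only Nt5e differed from both PD454 and PD883 when each was taken alone. Among 33 S phase genes, 28 G2/M genes, 26 glycolysis and hypoxia genes and 25 oxidative phosphorylation genes, edgeR, DESeq2 and limma-voom each called 0. By unadjusted p under 0.05, 1 S phase gene, 4 G2/M genes and 6 glycolysis genes were lower and 2 oxidative phosphorylation genes were higher. Of the 25 oxidative phosphorylation genes, 23 had a positive difference, with a median of 0.34 that was 0.10 with an offset for transcript length. The median effect of the G2/M genes was -0.84 in PD7591, -0.71 in PD454 and -0.62 in PD883. Cdkn1a, the cell cycle inhibitor p21, was 41.0 and 50.5 CPM against 36.2 and 25.5 CPM in PD7591, and went from 88.1 and 109 to 46.3 and 47.0 CPM in PD454 and from 189 and 147 to 35.3 and 19.0 CPM in PD883. Its difference of 1.29 (adjusted p = 0.0396) was 0.51 against PD454 alone (adjusted p = 0.479). It was lost in 7 of the 12 fits that each left out 1 library, with adjusted p up to 0.251.

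**Figure D5:**
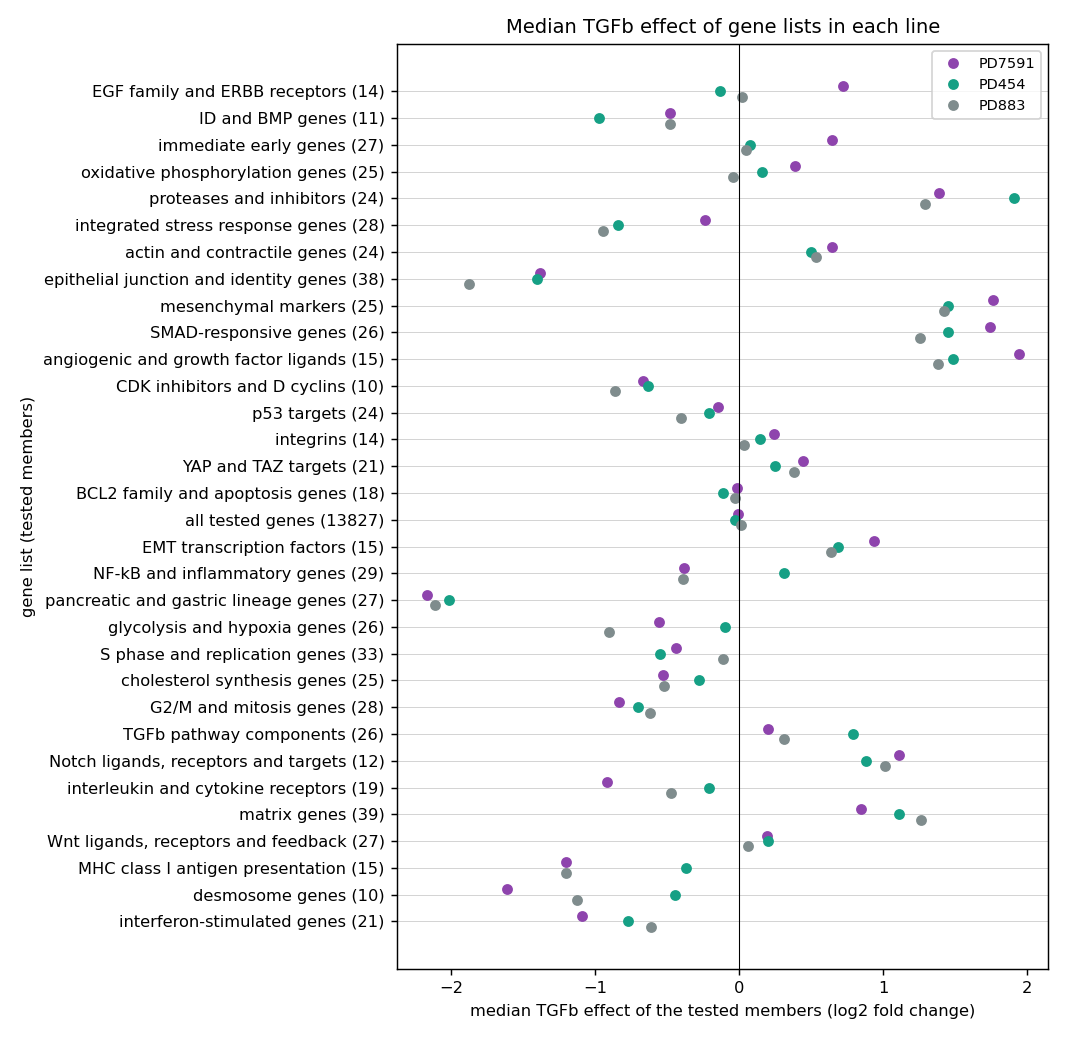
Median TGFb effect (log2 fold change) of the tested members of each gene list in PD7591 (purple), PD454 (green) and PD883 (grey), with the number of members in brackets, ordered by the median difference. For the EGF family and immediate early lists the purple point (0.72 and 0.64) lies to the right of the other 2, for the interferon and desmosome lists (-1.09 and -1.62) to their left, and the medians of all tested genes lie near 0.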

How the data were processed

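RNA of 18 libraries was sequenced, and the authors deposited a table of unnormalized read counts, 1 row per gene symbol. CASAVA, Trimmomatic 0.32, STAR, featureCounts and the mouse build mm10 were used, per the submitters' processing notes. Settings, strand mode and annotation release: not given in the sources used here. RNA came from either of 2 extraction kits, and no label ties a kit to a library. Of 24527 entries, 5059 had no count and 26 had names turned into dates.

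In edgeR 4.0.16 (R 4.3.3), 13827 genes passed filterByExpr with the 9 groups as design, and libraries were scaled by TMM, also for CPM. A robust quasi-likelihood model with a mean for each group over all 18 libraries gave every effect and difference, with Benjamini-Hochberg adjustment over all tested genes and a threshold of 0.05. The SE is the size of the log2 value divided by the square root of F. Every adjusted p is from this test unless another tool is named. The scripts were tested on simulated data.

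Members, lists and tests were chosen with earlier results of these data known. Named genes were the up to 12 largest differences in each direction among the 70 genes with at least 2 CPM in a DMSO or TGFb group, up to 2 called members per list and direction, and a panel. Predicted genes were counted and not named, and the text gives values for part of them. A few genes are not reported here. Alternatives were RLE factors, library totals, no filter, DESeq2 1.42.0, limma-voom (limma 3.58.1), the 12 DMSO and TGFb libraries, leaving out 4 libraries rich in short transcripts, a log2 difference tested against 1, leaving out each library or line, and, chosen after seeing the data, an offset for transcript length. The 95% counting interval is exact and covers counting error alone, because PCR copies of a molecule could not be told from separate molecules. Library totals of 17591005 to 37894692 limit precision for genes with few counts.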

Additional observations from a re-analysis of the deposited data

Results flagged for a closer look

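The TGFb effect differed between PD7591 and the mean of the other lines for 275 genes, and from each line alone for 70, by tests of the difference itself. Among the genes named in the text, the difference (log2, PD7591 minus the mean of PD454 and PD883) was positive for Runx3 (6.04), Atp6v0a4 (4.84), Rcan2 (3.33), Sdcbp2 (3.18), Zfp503 (3.02), Klhl1 (2.92), Angptl4 (2.89), Aldh1a3 (2.68), Areg (2.42), F2rl1 (2.40), Fgf1 (2.39), Cyr61 (1.53), Id3 (1.2), Nt5e (1.70), Egr1 (1.69), Nr4a1 (1.82), Fosb (2.08), Fos (1.43), Dusp1 (1.61), Cdkn1a (1.29) and Rdh10 (1.06). It was negative for Dhrs3 (-4.73), Stra6 (-4.28), Chst2 (-3.59), Myrip (-3.12), Wnt10a (-3.0), Col6a2 (-2.33), Ppp1r12b (-2.28), Mgat3 (-2.03), Hs6st2 (-2.01), Creb3l1 (-2.0), Mycl (-1.99), Tgfbr1 (-1.21), Col1a1 (-2.23), Adam8 (-1.14), Serpine2 (-1.63), Erap1 (-1.14), H2-T23 (-1.66), Gbp2 (-1.95), Wnt6 (-2.66), Elf3 (-1.29), Rarg (-1.08) and Tgm2 (-1.27). Of these 43 genes, 17 were still called in each of the 12 fits that left out 1 DMSO or TGFb library, and 21 lost the call through PD7591 libraries alone. With 2 libraries a group, no group was large enough to look for a single library that stands apart.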

How the results depend on the processing

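The number of genes with a called difference, 275, was 270 with RLE factors, 296 with library totals, 234 by limma-voom and 370 with the length offset. It was 496 without the filter on low counts, 553 by DESeq2, 167 with the 12 DMSO and TGFb libraries alone, 484 without the 4 libraries rich in short transcripts, and 18 when the difference was tested against 1 on the log2 scale. Of the 275 genes, 270 were also called by DESeq2. The fit without those 4 libraries left 1 library in each DMSO and TGFb group of PD454 and PD883. Its count is listed for completeness, and no conclusion on the 275 is drawn from it. The 70 genes became 149 without the filter, 156 by DESeq2, 44 with the 12 libraries and 8 when tested against 1. Within the lines, testing against 1 left 1432 genes in PD7591, 1265 in PD454 and 1663 in PD883. With 1 library left out the counts ran from 61 to 295 for the difference, from 23 to 72 for both lines, and from 3388 to 5494 for the effect in PD7591, and a group left with 1 library was assumed to vary like the others. Of the 275, 42.9% were higher. Against PD883 alone 62.4% of the called genes were higher, against PD454 alone 36.7%, and without TGFb library 5 of PD7591 67.2%. The causes were not tested.

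Over all alternatives, single gene differences kept direction and call in 965 cases, lost the call in 106, gained it in 5 and changed sign in 2. Effects within a line did so in 2817, 56, 37 and 30. Cdh1's difference was 0.53 without line PD454 and ran from -0.69 to 0.035 with 1 library left out. Over those same fits the effect in PD7591 ran from -1.39 to 0.89 for Atp6v0a4 and from -0.40 to 0.074 for Mycl. In PD454 it ran from -0.0044 to 0.66 for Areg, from -0.67 to 0.18 for Ppp1r12b, from -0.030 to 0.22 for Serpine2, from -0.0023 to 0.71 for Gbp2, from -0.41 to 0.47 for Nr4a1 and from -0.21 to 0.13 for Tgm2. In PD883 it ran from -0.13 to 0.86 for Angptl4, from -0.50 to 0.80 for Stra6, from -0.21 to 0.21 for Egr1 and from -0.10 to 0.14 for Nr4a1. Without the 4 libraries rich in short transcripts, the effect was -0.39 for Nr4a1 and 0.028 for Tgm2 in PD454, and -0.064 for Stra6 in PD883. By limma-voom it was -0.16 for Atp6v0a4 in PD7591 and -0.0063 for Nr4a1 in PD883. In PD883 it was -0.0042 for Nr4a1 with the 12 libraries, 0.00075 for Egr1 with library totals, and, with the length offset, -0.0047 for Stra6, 0.0097 for Egr1 and -0.011 for Nr4a1. No paired analysis was possible because the labels do not say which DMSO and TGFb libraries, if any, belong together. Depth limits genes such as Runx3, Atp6v0a4, Rcan2 and Zfp503, which had under 1 CPM in the DMSO libraries of PD7591.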

Other observations

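Because Dhrs3, Stra6 and Aldh1a3 were among the genes with the largest differences, 9 further genes of retinoid handling and response were looked up after those values were seen, so they are a description and no test of a list. Rarb, a retinoic acid receptor that retinoic acid itself induces, fell in PD7591 from 2.50 and 4.32 CPM to 0.317 and 0.548 CPM, by 2.96 on the log2 scale. The effects were -0.83 in PD454 and -0.66 in PD883, and the difference of -2.22 was not called (edgeR adjusted p = 0.0994), though it was by DESeq2 (0.038). Rarg, another such receptor, went from 32.1 and 39.0 CPM to 23.2 and 22.6 CPM in PD7591, and from 27.6 and 27.2 CPM to 42.1 and 42.1 CPM in PD454. Its difference was -1.08 (edgeR adjusted p = 0.0101), lost without DMSO library 2 (0.0912), TGFb library 5 (0.0784) or TGFb library 6 (0.0777) of PD7591, and against PD883 alone (-0.91, adjusted p = 0.0538), where it went from 46.9 and 43.5 CPM to 61.3 and 48.3 CPM.

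Tgm2, a transglutaminase that retinoic acid can induce, fell in PD7591 from 272 and 359 CPM to 66.8 and 85.5 CPM. It was 394 and 348 against 397 and 318 CPM in PD454 and fell from 605 and 458 to 224 and 150 CPM in PD883. The difference of -1.27 (edgeR adjusted p = 0.0226) was lost without DMSO library 2 (0.176), TGFb library 5 (0.207) or TGFb library 6 (0.0602) of PD7591 or TGFb library 17 of PD454 (0.0523). It was -2.0 against PD454 alone and -0.54 against PD883 alone (edgeR adjusted p = 0.00276 and 0.465). Rdh10, which oxidizes retinol to retinal, rose in PD7591 from 44.3 and 43.1 CPM to 193 and 180 CPM, against 257 and 220 then 320 and 310 CPM in PD454 and 66.4 and 67.2 then 194 and 228 CPM in PD883. Its difference of 1.06 (edgeR adjusted p = 0.00821) was 0.43 against PD883 alone (adjusted p = 0.38), and it was lost without DMSO library 1 (0.0559), DMSO library 2 (0.0738) or TGFb library 5 (0.0743) of PD7591. The differences of Aldh1a1, Rbp4, Rdh11, Rara and Rxra were not called by edgeR.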
